A study of Mus musculus with 4 samples.

Results

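The genes described here are 9 voltage-gated sodium channel subunit genes of sensory neurons, measured in the dorsal root ganglia of mice, which hold the cell bodies of the sensory neurons that serve skin, muscle and viscera. They were taken by gene name from a matrix of 14405 genes, each of which reached 1 FPKM in some sample. All 9 were present and all 9 passed the filter on low values, as did 14040 genes in all. The alpha subunit genes were Scn9a, Scn10a and Scn11a, typical of pain-sensing neurons (nociceptors), Scn1a and Scn8a, typical of neurons with myelinated fibres, and Scn7a, which is also active in glia. The beta subunit genes were Scn2b, Scn3b and Scn4b. The 2 wild type samples and the 2 Prdm12 mutant samples came from mice of mixed strain at 10 weeks of age. The mutants are labelled Prdm12-/Fl; AvilCreERT2/+, which stands for a null and a floxed Prdm12 allele together with a tamoxifen-inducible Cre recombinase under the sensory neuron gene Avil. The wild type label names neither the null allele nor the Cre, so those effects and the loss of the floxed allele cannot be told apart. The sources used here do not give when tamoxifen was applied or whether a sample was 1 animal or a pool. The p-values therefore reflect only how far these samples spread, which may be partly technical.

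Voltage-gated sodium channels open when the membrane is depolarised and carry the rising phase of the action potential. An alpha subunit forms the pore, and beta subunits change its gating and its place in the membrane. Nociceptors combine a channel that amplifies small depolarisations (Scn9a), a channel resistant to tetrodotoxin that carries much of the spike (Scn10a) and a persistent current near rest (Scn11a), whereas Scn1a and Scn8a serve fast firing in large myelinated neurons, Scn8a at the nodes of Ranvier. Prdm12 is a transcription factor required for the nociceptor lineage, and the study's title sets its loss in development against its loss in mature nociceptors. The comparison asks whether mutant ganglia held different amounts of these channel transcripts.

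The unit is FPKM, fragment numbers adjusted for transcript length and library size, so levels may be compared between genes. The depth is unknown because the values hold no read counts, and FPKM totals ran from 620018 to 686830. Prdm12 itself, as a check of the labels, was lower in both mutants (1.05 and 1.50 FPKM) than in both wild types (7.58 and 10.7 FPKM), with a log2 difference of -2.14 (limma adjusted p = 0.180, and 0.000645 after the pan-neuronal rescaling described further on). In the authors' deposited table of 150 genes, Prdm12 has a log2 change of -2.84 with q = 0.00742, and 0 of the 9 channel genes are named. By its label that table holds only genes past cut-offs on false discovery rate and on a log2 change of 1. The largest log2 difference of the 9 genes was 0.74 (Scn8a, with 0.1 FPKM added). Their absence can thus follow from the fold cut-off alone and does not show how they fared in the authors' test. The value of -2.14 was taken after 1 FPKM was added to each level, which shrinks it. Without that addition, the mutant mean was 0.14 of the wild type mean. All 14 pan-neuronal markers were present, with none at 0 in any sample, where only 21 of the 14040 genes tested were. Wild type 2 stood apart in sex-linked genes, with the X-inactivation transcript Xist at 21.1 FPKM against 0.00426 to 0.0295 FPKM in the other samples, and the Y-linked Eif2s3y at 0.0252 FPKM against 21.3 to 24.7 FPKM. By these genes wild type 2 reads as female and the other samples as male. Sex was thus not balanced between the groups, and its part in the differences was not tested. Xist and Eif2s3y were named outside the rule, and the results without wild type 2 follow with the others.

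The 9 sodium channel genes had slightly higher mean levels in the mutants, and none of these differences passed the test. With limma on log2(FPKM + 1), 0 of the 9 genes passed an adjusted p of 0.05, where 0% of the 14040 genes tested passed and the smallest adjusted p over all genes was 0.175. At an unadjusted p under 0.05 there were again 0 of 9, against 4.36% of all genes. That count was 3 of 9 without mutant 1 (12.8% of all genes) and 1 of 9 without wild type 2 (3.74%). The log2 differences, mutant minus wild type, ran from 0.04 for Scn2b to 0.50 for Scn8a, with a median of 0.21 where that of all genes tested was 0.00 to 2 decimals. All 9 were above 0 with 4 samples, but the sign was not stable when a sample was left out. Without wild type 1, 5 of the 9 were below 0 (median -0.02), and without mutant 2, 6 of the 9 were (median -0.07). Without wild type 2 and without mutant 1 all 9 were above 0, with medians of 0.45 and 0.51. Each such fit compares unequal numbers of first and second libraries, which differed within each group as described further on. Between samples of the same number, mutant 1 was above wild type 1 in 8 of the 9 genes and mutant 2 above wild type 2 in 9. The labels state no pairing, and the share of all genes in that position was not counted. In 0 of the 9 genes was the group difference larger than the gap between replicates in both groups, which held for 19.8% of all genes.

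Both mutants stood above both wild types for 2 of the 9 genes, Scn7a and Scn4b, and below them for 0. Among all genes tested, 12.5% were higher and 19.6% lower in that sense. The count was 2 without wild type 1 and 2 without mutant 2, where 22.3% and 23.1% of all genes met the rule. It was 8 without wild type 2 and 9 without mutant 1, against 35.5% and 40.1% of all genes.

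**Figure D1:**
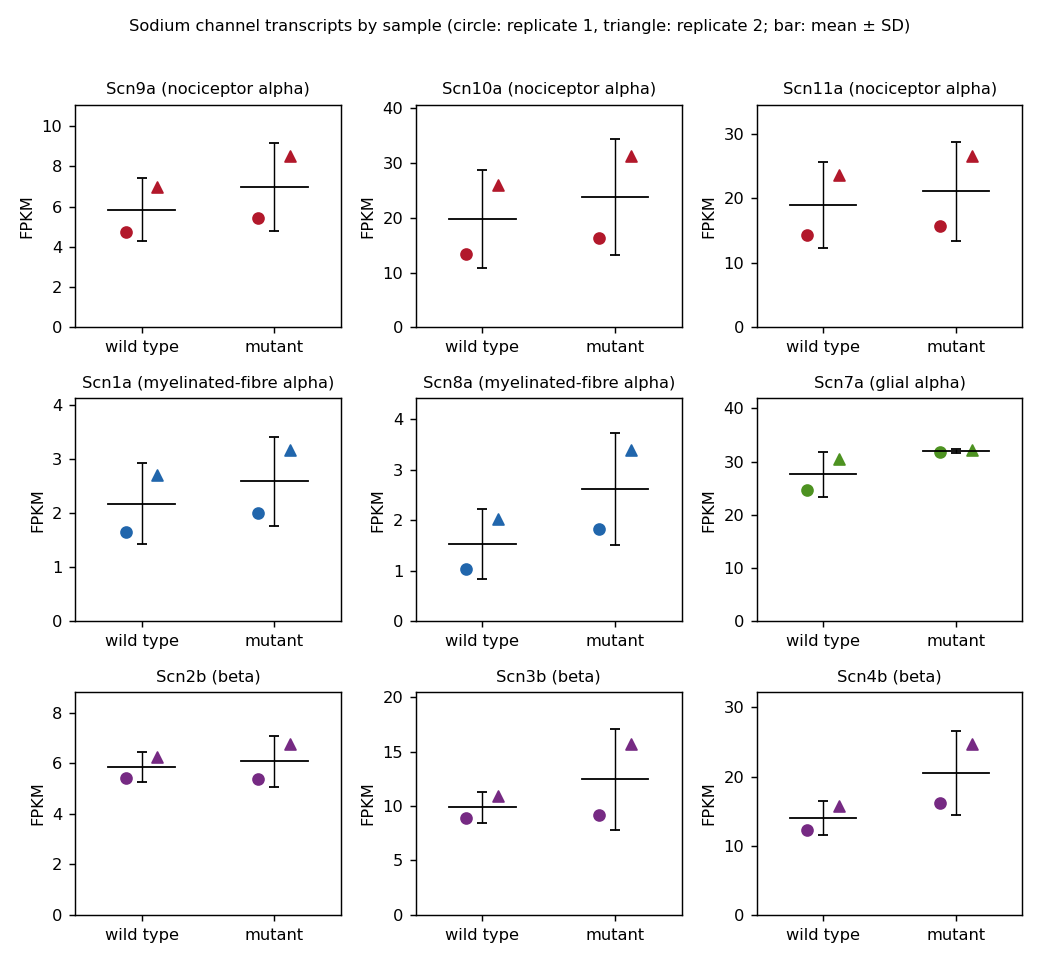
FPKM (vertical axes, each starting at 0) of the 9 sodium channel genes in wild type and mutant ganglia. Circles are replicate 1, triangles replicate 2, horizontal bars the means and error bars the SD (n = 2 each), and for 7 of the 9 genes the groups overlap, while Scn7a and Scn4b do not.

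Of the nociceptor alpha genes, Scn10a had 13.4 FPKM in wild type 1, 26.1 FPKM in wild type 2, 16.3 FPKM in mutant 1 and 31.3 FPKM in mutant 2. The second library of each group was nearly double the first, by 1.95-fold in wild type and 1.92-fold in the mutants, and the groups overlapped. The group means were 19.8 ± 8.97 FPKM for wild type and 23.8 ± 10.6 FPKM for the mutants (mean ± SD of 2), 1.21-fold apart. The log2 difference was 0.26 with a 95% interval of -0.78 to 1.29 (limma adjusted p = 0.994), an interval that spans a fall as well as a rise.

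Scn11a was at 14.3 and 23.6 FPKM in the wild types and at 15.7 and 26.6 FPKM in the mutants. It followed the same order of libraries, with 1.66-fold and 1.69-fold gaps within the groups, which overlapped. Its log2 difference was 0.15 (95% interval -0.69 to 0.98, limma adjusted p = 0.994). Scn9a was lower throughout, at 4.73 and 6.95 FPKM in the wild types and 5.43 and 8.50 FPKM in the mutants. Its groups overlapped too, with a log2 difference of 0.21 (95% interval -0.44 to 0.87). The antisense gene Gm13629 overlaps Scn9a and was at 0.349, 0.579, 0.511 and 1.12 FPKM in the same order of samples. Reads of this pair cannot be told apart if the libraries were not stranded. Gm10684, on the strand opposite Scn2b, was at 0.787 to 1.16 FPKM.

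Scn10a and Scn11a lie side by side on chromosome 9 in mm10, Scn10a at 119608456 to 119719322 and Scn11a at 119753759 to 119825456, 34.4 kb apart on the minus strand. Their promoter windows are shown because these neighbours are the most abundant nociceptor alpha genes here. All 9 genes stepped the same way between the libraries, so that is not particular to the pair. Each window covers 250 bases before to 50 after the RefSeq start of the gene on GRCm38.p6. It reads 5′ to 3′ on the gene's strand, and capitals mark the longest run that the pair shares. The gene positions above are from GENCODE, another annotation. The Scn10a window lies wholly inside the GENCODE gene, so its RefSeq start is downstream of the GENCODE start. The Scn10a window is chr9:119718983-119719282 and the Scn11a window chr9:119825407-119825706, both on the minus strand.
Scn10a: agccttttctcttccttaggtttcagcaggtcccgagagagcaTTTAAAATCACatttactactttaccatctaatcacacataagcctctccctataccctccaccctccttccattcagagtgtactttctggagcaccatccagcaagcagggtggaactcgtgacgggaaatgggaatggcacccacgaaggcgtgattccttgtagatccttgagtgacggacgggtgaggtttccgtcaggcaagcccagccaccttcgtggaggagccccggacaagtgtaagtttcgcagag
Scn11a: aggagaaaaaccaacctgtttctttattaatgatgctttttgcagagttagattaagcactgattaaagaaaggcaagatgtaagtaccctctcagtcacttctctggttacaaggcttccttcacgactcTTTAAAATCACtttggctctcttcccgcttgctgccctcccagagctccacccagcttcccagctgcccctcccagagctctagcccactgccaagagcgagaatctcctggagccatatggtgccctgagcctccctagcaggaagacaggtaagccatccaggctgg

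The shared run, TTTAAAATCAC, has 11 bases and starts 207 bases before the RefSeq start of Scn10a and 119 before that of Scn11a. Either strand of it occurs in 8 of 32851 promoter windows in the RefSeq table (0.0244%). Among the 35 pairs of windows from the 8 channel genes with an entry (Scn3b had none), 1 pair shared a longer run, Scn7a and Scn4b with the 12 bases AACAAAAACAGC, found in 4 windows. The E-box CANNTG, read on both strands, occurred in 7 of the 9 windows (Scn8a has 2) and in 72.3% of all windows. The RUNX core TGTGGT was in the Scn2b window alone of the 9 (16.8% of all windows), GGGCGG was in 1 of them, that of Scn7a (35.7% of all), and TATAAA in 0 (13.6% of all). The windows ranged from 38.3% G and C for Scn2b to 70.0% for the upstream window of Scn8a, around a median of 52.7% over all windows. These matches describe the letters only.

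The myelinated-fibre alpha genes were the least abundant of the 9. Scn1a was at 1.64 and 2.70 FPKM in the wild types and 2.00 and 3.16 FPKM in the mutants, with overlapping groups and a log2 difference of 0.18 (95% interval -0.46 to 0.82). Scn8a was at 1.04 and 2.02 FPKM in the wild types and at 1.83 and 3.39 FPKM in the mutants. Only mutant 1 and wild type 2 crossed over, and the means of 1.53 ± 0.693 and 2.61 ± 1.11 FPKM (SD, n = 2 each) were 1.70-fold apart, the widest ratio of the 9. The log2 difference of 0.50 had a 95% interval of -0.25 to 1.26 and did not pass (limma adjusted p = 0.994). At these low levels the added 1 FPKM shrinks the difference, which was 0.74 with 0.1 FPKM added. Scn8a lies alone on chromosome 15 at 100869858 to 101045938. Scn1a (66270778 to 66440840), Scn9a (66480080 to 66634962) and Scn7a (66673425 to 66784914) follow each other on the minus strand of chromosome 2, with gaps of 39.2 and 38.5 kb.

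Scn7a, which encodes a sodium-sensing relative of the voltage-gated channels and is known from Schwann cells as well as neurons, was the most abundant of the 9 genes in every sample. It was at 24.6 and 30.6 FPKM in the wild types and at 31.7 and 32.2 FPKM in the mutants, higher in both mutants by a small margin over wild type 2. The mutants differed by 1.02-fold, while the other 8 genes differed between the same mutants by 1.26-fold to 1.92-fold. The log2 difference was 0.21 (95% interval -0.21 to 0.63, limma adjusted p = 0.994).

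Among the beta genes, Scn4b, whose product is linked to resurgent current, was at 12.3 and 15.7 FPKM in the wild types and 16.2 and 24.8 FPKM in the mutants. Both mutants were higher, mutant 1 only just, and mutant 2 stood apart from the other 3 samples. The means of 14.0 ± 2.40 and 20.5 ± 6.06 FPKM (SD, n = 2 each) were 1.46-fold apart, with a log2 difference of 0.50 (95% interval -0.12 to 1.11, limma adjusted p = 0.994). Its unadjusted p of 0.0927 was the smallest of the 9 genes, and without mutant 2 the difference was 0.21.

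Scn3b was at 8.90 and 10.9 FPKM in the wild types and at 9.16 and 15.7 FPKM in the mutants, so that mutant 2 alone was high (log2 difference 0.27, 95% interval -0.41 to 0.94). Scn2b, whose product links covalently to the alpha subunit, had the smallest group difference, at 5.43 and 6.25 FPKM in the wild types and 5.36 and 6.78 FPKM in the mutants. Its log2 difference of 0.04 had a 95% interval of -0.39 to 0.47. Scn2b (45117782 to 45130070) and Scn4b (45138395 to 45154152) are neighbours on the plus strand of chromosome 9, 8.3 kb apart, and Scn3b lies on the same chromosome at 40269217 to 40291618.

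**Figure D2:**
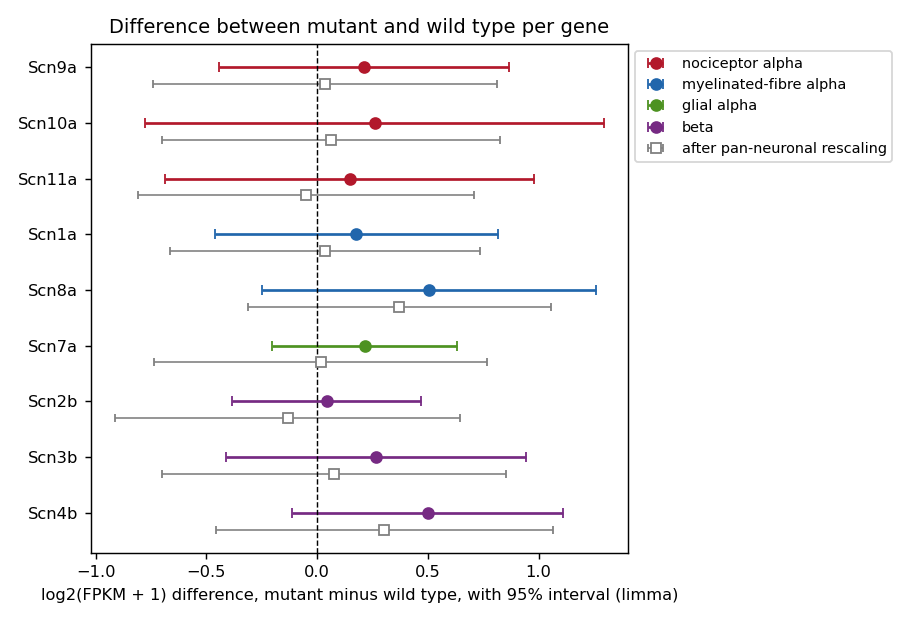
Difference in log2(FPKM + 1), mutant minus wild type (horizontal axis), for the 9 genes, with 95% intervals from limma. Filled points are the deposited values and open squares the values rescaled to an equal pan-neuronal level, and every interval spans 0.

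The order of the genes by FPKM was nearly the same in the 4 libraries. Scn7a came first in all 4, Scn10a and Scn11a followed with Scn4b, and Scn1a and Scn8a came last. Scn10a and Scn11a changed places, Scn11a being higher in wild type 1 and Scn10a in the other samples. Scn4b passed Scn11a in mutant 1, Scn9a and Scn2b were in reverse order in wild type 1, and Scn8a passed Scn1a in mutant 2. These neighbours did not differ beyond their spread. In the wild types the ranges of Scn4b, Scn3b and Scn9a did not overlap each other.

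Shares of the summed FPKM compare the genes within a library, where a common shift cancels. Of the summed FPKM of the 5 alpha genes other than Scn7a, Scn10a made up 38.2% and 42.5% in the wild types and 39.5% and 42.9% in the mutants. Scn11a made up 40.7% and 38.5% in the wild types and 38.1% and 36.4% in the mutants, without overlap. With Scn7a in the pool the Scn11a shares overlapped, at 23.9% and 25.7% against 21.5% and 25.3%. The nociceptor genes thus filled most of the alpha pool in every library. Scn8a had 2.97% and 3.30% in the wild types and 4.43% and 4.65% in the mutants, a gap between the groups wider than the gap within either. With Scn7a counted in the pool that gap was narrower than the gaps within, as Scn8a then had 1.75% and 2.2% in the wild types and 2.50% and 3.23% in the mutants. Scn1a had 4.68% and 4.40% against 4.85% and 4.34%, with overlap. Scn4b had 46.2% and 47.8% of the 3 beta genes in the wild types and 52.8% and 52.4% in the mutants, and Scn2b had 20.4% and 19.0% against 17.4% and 14.3%. These shares were picked out after their values were seen and have no test.

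**Figure D3:**
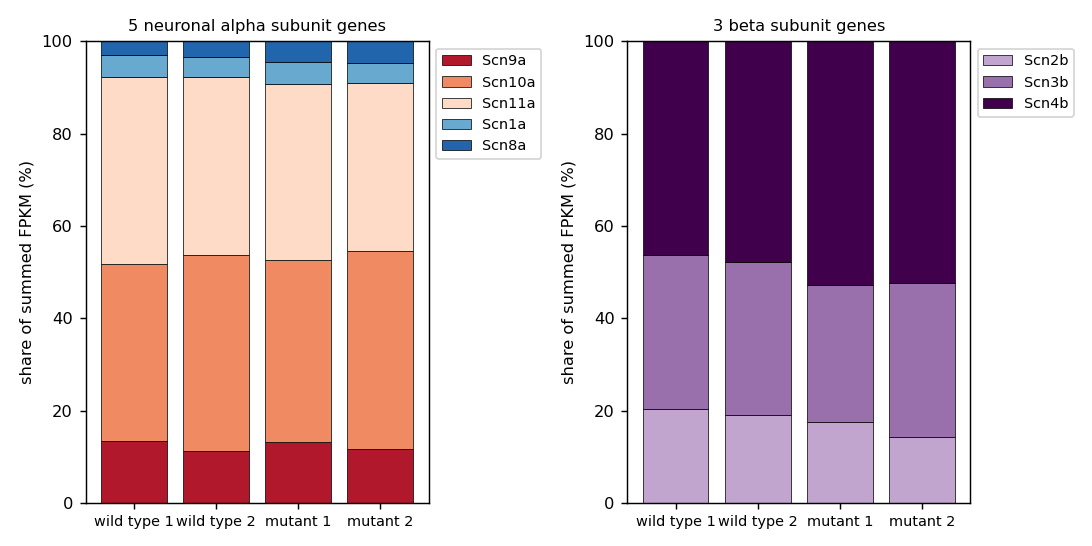
Share of the summed FPKM (vertical axis, %) taken by each of 5 neuronal alpha genes (left) and 3 beta genes (right) in the 4 samples, 1 bar per sample. Scn8a takes 2.97% and 3.30% in the wild types against 4.43% and 4.65% in the mutants, and Scn4b 46.2% and 47.8% against 52.8% and 52.4%.

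The classes were compared as the mean log2(FPKM + 1) of Scn9a, Scn10a and Scn11a minus that of another class in the same library, without a test. Against the myelinated-fibre genes this was 2.22 and 2.38 in the wild types and 2.08 and 2.25 in the mutants, so the groups overlapped. The mutant mean was lower by 0.14, where the gap between replicates was 0.17 in each group. With 0.1 FPKM added in place of 1 the change was -0.27. Against the beta genes it was 0.19 and 0.63 in the wild types and 0.25 and 0.44 in the mutants. Against Scn7a it was -1.25 and -0.86 in the wild types and -1.41 and -0.70 in the mutants, and the mutant range enclosed that of the wild types.

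The larger pattern lay between libraries of 1 genotype. For all 9 genes the second wild type library was above the first and the second mutant library above the first, which 40.3% of all genes tested did. The median log2 gap over the 9 genes was 0.47 in wild type and 0.58 in the mutants, against 0.06 and 0.05 over all genes. Pan-neuronal genes stepped the same way, 14 of 14, with medians of 0.35 and 0.56. Their summed level was 3554 and 4468 FPKM in the wild types and 3793 and 5456 FPKM in the mutants, led by Uchl1 and Tubb3. In bulk tissue a smaller share of neurons and less RNA per neuron cannot be told apart.

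Muscle and adipocyte markers stepped up in the same libraries, 9 of 9 and 6 of 6 genes in both groups, and their part in the channel values was not tested. Myelinating Schwann cell and satellite glia markers did so in 3 of 11 and 1 of 6 genes. The 9 skeletal muscle markers, led by Acta1 and Tnnt3, summed to 258 and 2104 FPKM in the wild types and to 114 and 4363 FPKM in the mutants. The 6 adipocyte markers, led by Fabp4 and Cfd, summed to 472 and 763 FPKM in the wild types and 277 and 2317 FPKM in the mutants. The sum of the 11 myelinating Schwann cell markers, among them Pmp22, was high in mutant 2 alone, at 21580 FPKM against 8393 to 10500 FPKM in the other samples. By gene, 7 of the 11 were higher in both mutants, where 12.5% of all genes were. The median log2 difference of the 11 was 0.63, with 0 past the threshold. The 6 satellite glia markers, led by Apoe and Sparc, summed to 6914 to 7854 FPKM in the wild types and 7016 to 7200 FPKM in the mutants. None of these markers was at 0 in any sample, where only 21 of the 14040 genes tested were. The 11 nociceptor markers, led by Calca and Prph, and the 12 myelinated neuron markers, led by Pvalb and Ldhb, had median log2 differences of 0.01 and 0.17, with 0 past the threshold. For the 7 non-myelinating Schwann markers, led by Ngfr and L1cam, which neurons also express, it was 0.24. Of the spinal cord markers Aqp4 alone was analysed, at 0.898 to 1.15 FPKM.

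**Figure D4:**
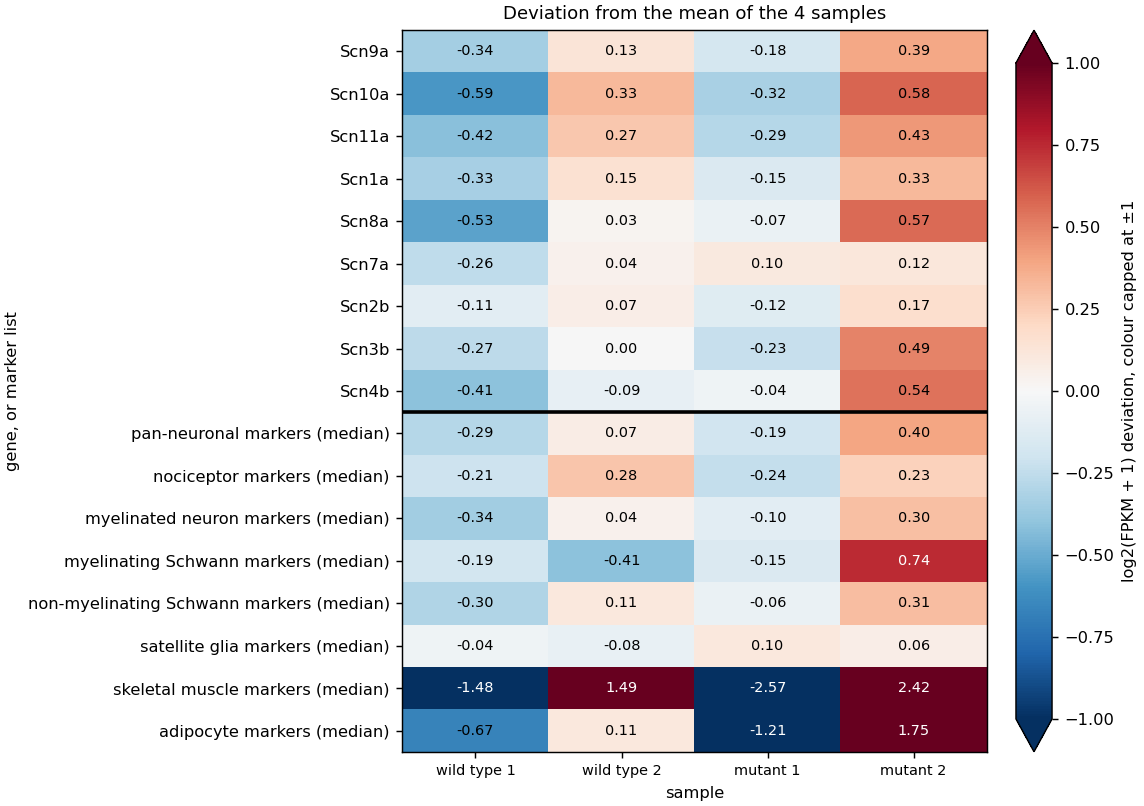
Deviation of log2(FPKM + 1) from the mean of the 4 samples, by sample (horizontal), for the 9 genes and, under the line, the median of each marker list (vertical). Scn10a runs from -0.59 in wild type 1 to 0.58 in mutant 2 and the pan-neuronal median from -0.29 to 0.40. Scn7a spans -0.26 to 0.12 and Scn2b -0.12 to 0.17.

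When the libraries were rescaled so that the pan-neuronal genes had an equal mean level, the median log2 difference of the 9 genes was 0.03, in place of 0.21. The rescaling moved the median over all genes tested to -0.18, and relative to that the channel median was 0.22. Of the 9 genes 7 were above 0 and Scn11a (-0.05) and Scn2b (-0.13) below it, while Scn8a stood at 0.37 and Scn4b at 0.30. At an unadjusted p under 0.05 there were 0 of 9, against 2.86% of all genes.

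Genes that anchor or regulate the channels were read from lists. Of 9 genes of the node of Ranvier and axon initial segment, 0 passed and 4 were higher in both mutants (Nfasc, Nrcam, Cntnap1 and Gldn, named after their values were seen), where 12.5% of all genes were. Their median log2 difference was 0.36. Gldn, a Schwann cell protein that gathers channels at nodes, was at 12.8 and 13.3 FPKM in the wild types and 15.6 and 18.7 FPKM in the mutants. Cntn1, an axonal adhesion protein that binds the channels, was at 10.4 and 16.4 FPKM and at 13.7 and 18.5 FPKM. Of 14 regulators and trafficking partners 0 passed, 0 were higher and 3 lower in both mutants, where 19.6% of all genes were lower in that sense, and the median was -0.01. The annexin partner S100a10, which helps Scn10a channels reach the membrane, was at 1905 and 2007 FPKM in the wild types and 1769 and 1944 FPKM in the mutants, and Calm2, a calmodulin gene, at 898 and 1026 FPKM and 939 and 870 FPKM. Of the 3 leak channel genes present 0 passed, 1 was higher and 1 lower in both mutants, where 12.5% and 19.6% of all genes were. Nalcn, the pore of the sodium leak channel, was the lower one, at 5.61 and 5.52 FPKM in the wild types and 4.50 and 3.97 FPKM in the mutants. The higher one, Unc80 (named after its values were seen), was at 0.958 and 1.16 FPKM and at 1.21 and 1.71 FPKM. Fam155a was at 1.11 and 1.65 FPKM and 1.53 and 2.04 FPKM.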

How the data were processed

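Bulk RNA sequencing covered 2 wild type and 2 mutant samples of dorsal root ganglia. The authors deposited FPKM values for 14405 genes, and the submitters' processing notes name CASAVA, TopHat2 2.1.2, Cufflinks 2.2.1 and the build mm10. The sources used here do not give settings, strandedness or library scaling. The authors also deposited a table of 150 genes that lists for each the FPKM by group, the log2 fold change, the p-value and its q-value, from which the values of Prdm12 were taken. By its label it holds only genes past cut-offs on FPKM, fold change and false discovery rate.

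Groups were compared with limma 3.58.1 (R 4.3.3), on the log2(FPKM + 1) scale and with the prior variance fitted as a trend on mean expression. It ran over 14040 genes whose mean reached 1 FPKM in wild type or mutant. Residual degrees of freedom were 2, with 3.44 more borrowed across genes. P-values were adjusted by Benjamini and Hochberg over all tested genes, with a threshold of 0.05. The code was tested on simulated data. An exact two-sided permutation test of 2 against 2 samples cannot give a p below 0.333, so none was run.

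The channel genes and the 13 other lists were chosen with earlier results of these data known. Named genes were the 9 channel genes, Prdm12, and from each other list the genes past the threshold or otherwise the 2 most abundant. Some genes of these lists are not reported here. Genes outside that rule are said to be so. Alternatives were another pseudocount, other filters, 3 rescalings, leaving out each sample and a replicate block. The count of genes without overlap was repeated with each sample left out, an alternative chosen after seeing the data. Sums over lists used every listed gene present. Gene positions come from GENCODE M21 on GRCm38, the assembly of mm10, and promoter windows from RefSeq starts.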

Additional observations from a re-analysis of the deposited data

How the results depend on the processing

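No channel gene passed the adjusted threshold of 0.05 under any alternative run, and the limits are the 2 samples per group and the unknown depth. The count of genes past the threshold over the whole table was 0 as reported. After pan-neuronal rescaling it was 36, all of them lower in the mutants, where the rescaling moved the median of all genes to -0.18. With a replicate block it was 61, of which 58 were lower and 3 higher. With pan-neuronal rescaling the log2 difference of Scn11a was -0.049 and that of Scn2b -0.13, the reverse of the reported sign. With 1 sample left out, values ran from -0.070 to 0.49 for Scn9a, -0.20 to 0.71 for Scn10a, -0.21 to 0.51 for Scn11a, -0.066 to 0.42 for Scn1a, -0.10 to 0.19 for Scn2b and -0.094 to 0.63 for Scn3b, turning below 0 without wild type 1 or without mutant 2. The exception was Scn3b without wild type 1 (0.13). Scn7a (0.06 to 0.36), Scn8a (0.19 to 0.82) and Scn4b (0.21 to 0.79) stayed above 0. A group left with 1 sample was assumed to vary like the other. The lower nociceptor value against the myelinated-fibre genes was -0.27 with 0.1 FPKM added, and could not be computed with a minimum of 5 FPKM, which removes Scn1a and Scn8a. The class differences moved by less than the replicate spread, the SD pooled over both groups, under every rescaling. Those against the beta genes and Scn7a also did so with 0.1 FPKM added. The other filters and the replicate block could not change a class difference that remained computable. Leaving out 1 sample cannot move a class difference beyond that spread, so it does not test stability by this measure. The difference against the beta genes then ran from -0.28 to 0.16 and that against Scn7a from -0.36 to 0.35. The labels give both groups the same replicate numbers and state no pairing. Over genes, deviations of same-numbered samples correlated at 0.481, and with the replicate block the adjusted p of the 9 genes ran from 0.295 (Scn4b) to 0.925 (Scn2b), with the same differences. At an unadjusted p under 0.05 the block gave 2 of the 9 genes, against 1474 of 14040 genes in all, and Prdm12 passed (limma adjusted p = 0.0250). The cause of these changes was not tested.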
